A study of Mus musculus with 24 samples.

Results

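The 9 genes described here, 8 of endothelial cells and 1 beside them on the genome, were followed through the adipose tissue of mice with partial nephrectomy. They were taken by symbol from the count table: Nos3, Pecam1, Cdh5, Kdr, Tek, Vwf, Cldn5 and Egfl7, which endothelial cells express, and Atg9b, which lies on the strand opposite to the end of Nos3. All 9 were found among the 54232 genes of the table, and all 9 had more than the 10 counts over all libraries that a gene needed to be tested. The samples were 24 libraries, 1 for each of 24 C57BL6 mice, which were 10 weeks old per the series' design text, in 4 groups of 6. Control mice had a sham operation and a lentivirus coding for GFP, NaKtide mice a sham operation and the lentivirus for NaKtide (a peptide made to block signalling through the Na,K-ATPase and Src), PNx mice a 5/6 nephrectomy and the GFP virus, and PNx+NaKtide mice a 5/6 nephrectomy and the NaKtide virus. All 24 mice therefore carried a lentivirus, given intraperitoneally and driven by the adiponectin promoter, which is active in adipocytes, whereas most of these genes belong to endothelial cells. RNA came from whole visceral fat, so that fewer cells of a type and less RNA per cell cannot be told apart.

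Endothelial cells line every vessel, and fat is a tissue dense in capillaries. The products of Pecam1, Cdh5 and Cldn5 hold these cells to each other, Kdr and Tek encode the receptors through which vascular endothelial growth factors and angiopoietins act on them, and Vwf and Egfl7 encode proteins they secrete. Nos3 encodes endothelial nitric oxide synthase (eNOS), whose product relaxes the smooth muscle of the vessel wall, and the study also measured it by quantitative PCR, in a set of genes taken from its own sequencing. By that assay, on RNA extracted earlier from the same groups, the study reported the set as higher in PNx and reversed by NaKtide. ATG9B, by contrast, is a membrane protein of autophagy, and is not an endothelial marker.

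Nos3 is not alone at its locus. Nos3 (ENSMUSG00000028978) runs on the plus strand of chromosome 5 from 24364810 to 24384474 (GRCm38), and Atg9b (ENSMUSG00000038295) on the minus strand from 24384181 to 24392143. The annotated exons of the pair share 294 bases, which is 7.12% of the exon bases of Nos3. A longer overlap was found with a second minus-strand gene, Gm15587 (ENSMUSG00000086769, annotated as antisense, chromosome 5 from 24366192 to 24383614), which shares 1040 exon bases with Nos3, or 25.2% of them. The next pair of sequences shows what this overlap means for a read: a coding exon of Nos3 (exon 12 of 26, chr5:24372127-24372271, plus strand) lies whole in an exon of Gm15587 (exon 2 of 4, chr5:24372121-24372337, minus strand). Both are printed 5′ to 3′ from the GENCODE M21 transcripts, and capitals mark the 145 bases they share as reverse complements.
Nos3: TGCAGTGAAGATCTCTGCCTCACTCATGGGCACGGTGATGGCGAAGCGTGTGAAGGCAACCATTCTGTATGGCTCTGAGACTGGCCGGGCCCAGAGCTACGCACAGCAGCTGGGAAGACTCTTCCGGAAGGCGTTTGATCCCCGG
Gm15587: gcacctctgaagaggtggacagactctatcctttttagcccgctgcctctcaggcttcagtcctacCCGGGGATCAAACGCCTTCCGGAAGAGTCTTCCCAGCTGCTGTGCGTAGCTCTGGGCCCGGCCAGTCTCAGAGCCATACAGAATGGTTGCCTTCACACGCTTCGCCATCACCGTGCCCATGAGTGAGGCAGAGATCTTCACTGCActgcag
The overlap with Atg9b is shown by the last 30 bases of Nos3 (chr5:24384445-24384474), which lie in the untranslated end of both genes, again with shared bases in capitals.
Nos3 end: TCTGCAAAAAAAAAAAAGTTTCTAACCAGG
Atg9b: CCTGGTTAGAAACTTTTTTTTTTTTGCAGA
A read from these bases belongs to one gene or to the other only by its strand.

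**Figure D1:**
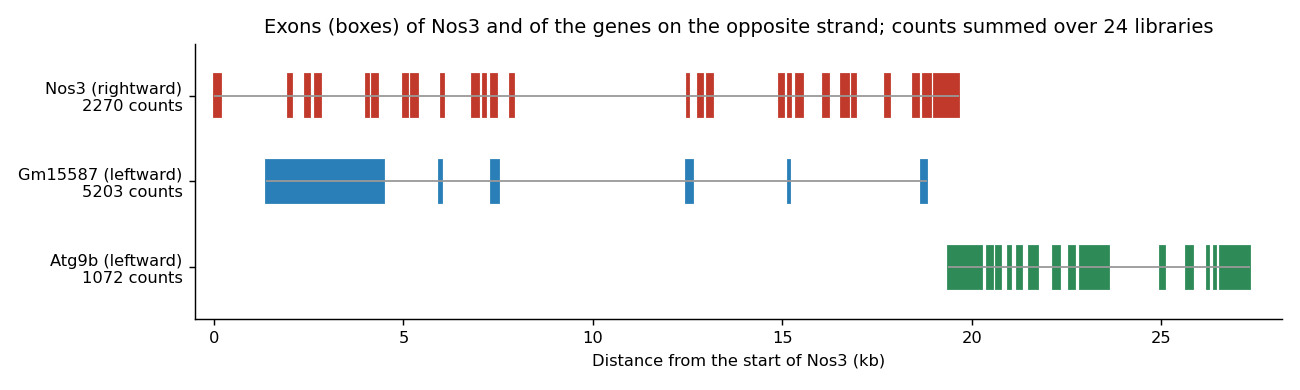
Exons of Nos3, Gm15587 and Atg9b drawn against the distance from the start of Nos3 in kb, each gene on its own row with its strand and its counts summed over the 24 libraries. Boxes are exons, with Nos3 read rightward and the other genes leftward. Boxes of Gm15587 lie under Nos3 exons at several places, and the leftmost box of Atg9b lies under the last exon of Nos3.

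The strand of the counts was therefore looked at before anything else. Libraries were made with a stranded kit, and for the strand setting of the counting the sources used here give nothing. Gm15587, an antisense gene, had 5203 counts over the 24 libraries, Nos3 2270 and Atg9b 1072. In the mitochondrial genome mt-Nd6, the only mRNA of the minus strand and a gene picked once its value was known, had 403137 counts per kb, and the highest of the 12 plus-strand mRNAs 13254. Genes with an opposite-strand overlap held between 70.2% and 86.5% of the counts of a library. The counts of a gene below may thus hold, in part or in whole, reads of RNA made from the other strand. To what extent they do was not tested, and the values are given as the row of each gene has them.

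Of the other endothelial genes, only Egfl7 (ENSMUSG00000026921, chromosome 2, 26580014 to 26593120, plus strand) shares exon bases with an opposite gene: 58 with Mir126b and 64 with Agpat2. The remaining 6 share none: Kdr (ENSMUSG00000062960, chromosome 5, 75932827 to 75978458, minus strand), Tek (ENSMUSG00000006386, chromosome 4, 94739289 to 94874976, plus strand), Pecam1 (ENSMUSG00000020717, chromosome 11, 106654217 to 106750628, minus strand), Cdh5 (ENSMUSG00000031871, chromosome 8, 104101625 to 104144511, plus strand), Cldn5 (ENSMUSG00000041378, chromosome 16, 18776847 to 18778262, plus strand) and Vwf (ENSMUSG00000001930, chromosome 6, 125546774 to 125686679, plus strand). These 6 were thinly counted, with totals over all 24 libraries between 218 (Vwf) and 456 (Cdh5), whereas Egfl7 had 2800. Library totals ran from 679250 to 2979505 counts, and 3 counts, the most that a count of 0 allows, correspond to between 0.739 and 5.91 CPM (counts scaled to the size of the library, with the TMM factors of edgeR). Many single values of these 6 genes are at or under that limit, which covers counting error only.

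Per length, on the deposited FPKM scale, Egfl7 had the highest level of the 9, with a median over the 24 libraries of 12.5 FPKM and a range from 6.52 to 126.2. Nos3 followed at 4.48 FPKM (0.632 to 67.7), Atg9b at 4.43, Cldn5 at 1.07, Tek at 0.795, Pecam1 at 0.492, Cdh5 at 0.44, Vwf at 0.282 and Kdr at 0.14. In that order only Atg9b and Cldn5 are neighbours whose interquartile ranges do not overlap, Atg9b being higher in 23 of 24 libraries. Nos3, the second in the order, was above Atg9b in 10 libraries of 24, so those 2 levels were not separated. Places 1 to 3 were held by the 3 members with an opposite-strand overlap, and places 4 to 9 by the 6 without one. How much of the order comes from reads of the other strand was not tested.

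The labelled tissue was checked against its markers. The summed level of 15 adipocyte genes, among them Fabp4 and Lpl, reached 7246 CPM in PNx replicate 6, 5602 in NaKtide replicate 6 and no more than 1198 in the other 22 libraries, of which the lowest had 119. A list of 15 epididymis genes had 145 and 33.6 CPM in those 2 libraries, 22.7 to 791 CPM in PNx replicates 1 to 3 and at least 1174 CPM in every remaining library. NaKtide replicate 6 held 6019 CPM of 12 skeletal muscle genes, against at most 47.2 CPM in the other 22 libraries, and PNx replicate 6 held 1628 CPM of 7 erythrocyte genes, against 245 CPM in NaKtide replicate 6 and at most 120 in the rest. The results below that turn on these libraries are given with and without them.

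Of the 9 genes, 6 were highest in 1 library, PNx replicate 6. Kdr had 70.2 CPM there, 9.70 in NaKtide replicate 6, and a median of 0.827 with a highest value of 4.19 in the other 22 libraries. Cdh5, VE-cadherin of the adherens junction, had 123 CPM in PNx replicate 6, 22.6 in NaKtide replicate 6 and at most 9.41 elsewhere. Pecam1, the platelet and endothelial adhesion molecule CD31, had 112, 21.3 and at most 8.15 CPM in the same order. Cldn5, a claudin of endothelial tight junctions, had 58.5, 9.70 and at most 5.55 CPM. In each of these 4 genes the same 2 libraries stood first and second, and PNx replicate 6 alone held 74.1% of the Kdr counts, 71.3% of those of Cdh5, 67.4% of those of Cldn5 and 66.6% of those of Pecam1. Vwf, the adhesive protein that endothelial cells and platelets store, had 22.3 CPM in PNx replicate 6 and at most 8.62 in any other library, with 5.17 in NaKtide replicate 6. Tek, the angiopoietin receptor TIE2, had 19.6 CPM in PNx replicate 6, 6.81 to 9.12 in PNx replicates 1 to 3, and 3.23 in NaKtide replicate 6. For Vwf and Tek the second library was thus another one, and PNx replicate 6 held 27.1% and 20.6% of their counts.

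The remaining pair with an opposite gene peaked in the other of these libraries. Egfl7, a secreted regulator of vessel formation, had 431 CPM in NaKtide replicate 6, 186 in PNx replicate 6, and 22.0 to 124 in the other 22 libraries. Atg9b had 136 CPM in NaKtide replicate 6, 91.7 in PNx replicate 6 and at most 37.4 elsewhere. The genes opposite to Egfl7 had the same 2 libraries first: Mir126b, a microRNA gene annotated on the other strand, had 29.1 and 19.2 CPM, and Agpat2, an enzyme of triglyceride synthesis, 133 and 123 CPM. So had Gm15587, with 847 CPM in NaKtide replicate 6, 530 in PNx replicate 6 and at most 147 elsewhere.

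Nos3 followed neither pattern. It had 84.0 to 174.5 CPM in PNx replicates 1 to 3, and in the other 21 libraries a median of 12.1 CPM and a range from 2.50 to 86.9, the highest being PNx+NaKtide replicate 2. PNx replicate 6, where Kdr, Cdh5, Pecam1 and Cldn5 peaked, had 34.3 CPM of Nos3, the ninth of 24, and NaKtide replicate 6 had 23.3 CPM. PNx replicates 1 to 3 held 62.1% of all Nos3 counts, but 1.32% of those of Cdh5, 1.57% of Pecam1, 1.99% of Kdr and 2.61% of Cldn5. They held 7.8% of the counts of Vwf, 9.68% of Egfl7, 6.25% of Atg9b and 4.15% of Gm15587. Tek was the one other endothelial gene with a large share there, 32.9%. These are shares of raw counts, and the 3 libraries had totals of 2979505, 2309056 and 2678556 counts. The other 21 libraries ran from 679250 to 2366069 (Control replicate 2), and the part of all counts that the 3 held was not computed. In CPM, Tek was at 6.81 to 9.12 in them, beside a median of 6.30 and a highest value of 8.01 in Control.

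**Figure D2:**
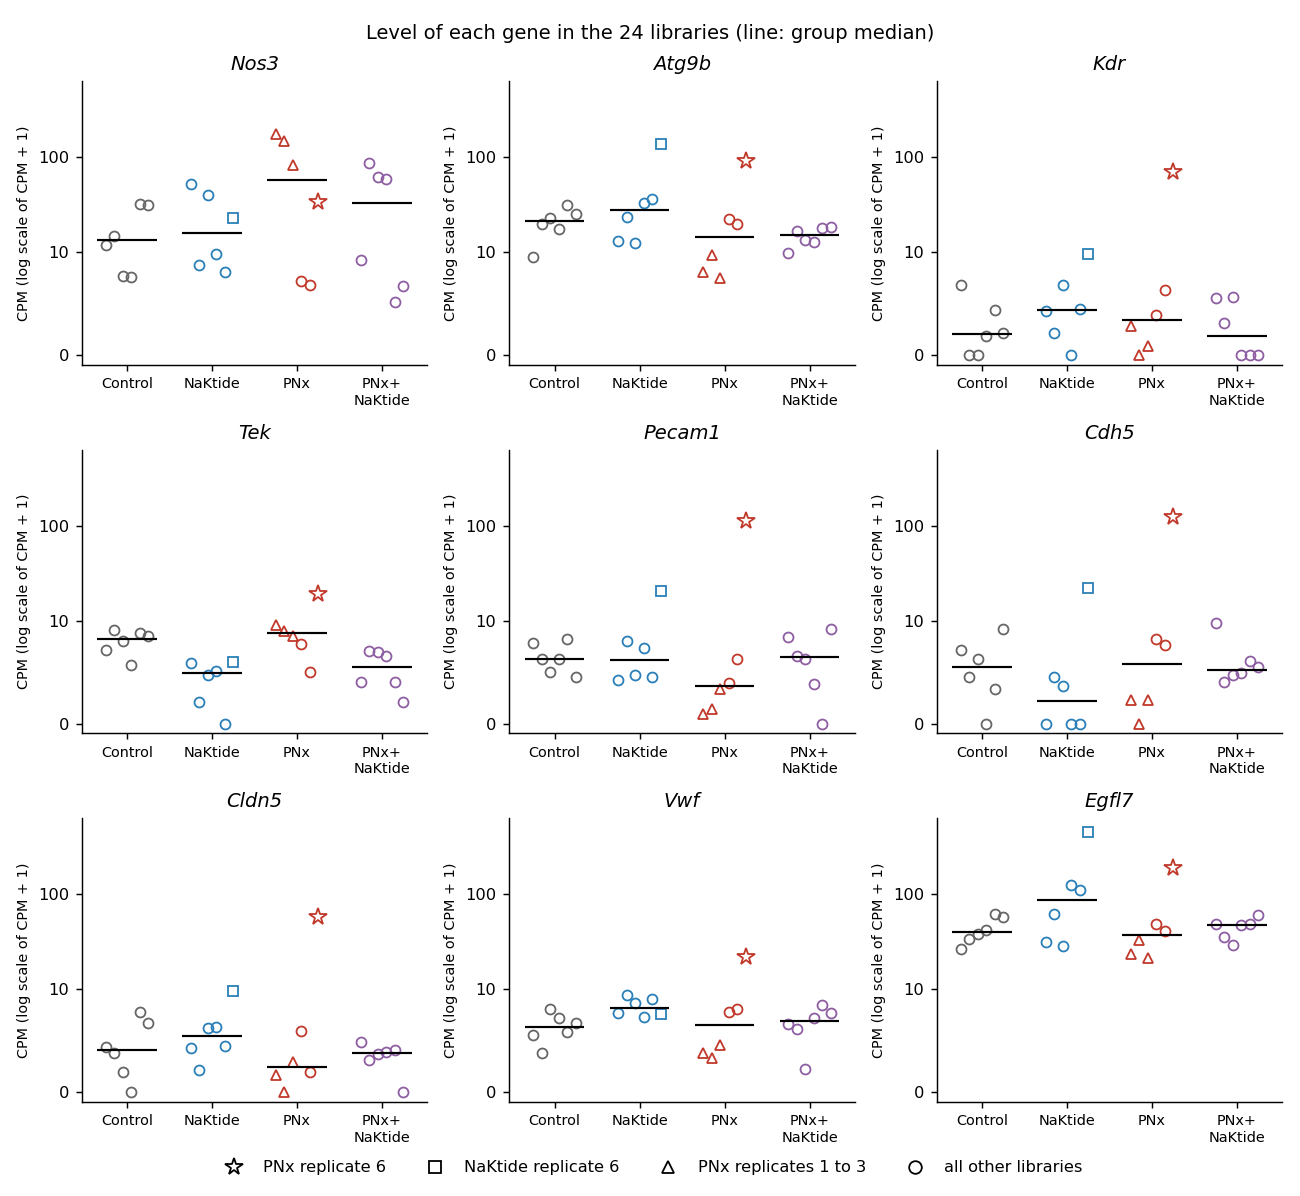
Level of each of the 9 genes in the 24 libraries, 1 panel a gene, groups of 6 on the horizontal axis and CPM (log scale of CPM + 1) on the vertical axis; points are libraries, lines are group medians. The star, PNx replicate 6, is the highest point for Kdr, Tek, Pecam1, Cdh5, Cldn5 and Vwf, while the triangles, PNx replicates 1 to 3, are among the highest for Nos3 and among the lowest for Pecam1, Cdh5, Atg9b and Egfl7.

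Within the locus the balance of the strands differed between libraries. In PNx replicates 1 to 3 the count of Nos3 was 4.90 to 8.05 times that of Gm15587. In the other 21 libraries the ratio had a median of 0.107 and ran from 0.0275 (NaKtide replicate 6) to 1.46 (PNx+NaKtide replicate 2), and Nos3 was above Gm15587 in 5 of the 21. These were NaKtide replicates 1 and 3 and PNx+NaKtide replicates 2, 3 and 4, with ratios of 1.34, 1.11, 1.46, 1.29 and 1.37. In Control all 6 libraries had more Gm15587 than Nos3. A row of the table labelled Nos3 thus moved apart from the rows that lie across it.

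The relation was computed over the 18 libraries of Control, NaKtide and PNx+NaKtide, the PNx libraries being left out since they fall into separate clusters. Nos3 and Atg9b, both on the log2 CPM scale, had r = -0.11 (permutation p = 0.695; adjusted over 4 relations, 0.695) and rho = -0.27 (permutation p = 0.284), and r = -0.02 without the 2 libraries farthest from the median of Nos3. Nos3 and the summed CPM of Pecam1, Cdh5, Kdr, Tek, Vwf, Cldn5 and Egfl7 had r = -0.14 and rho = -0.37, and r = 0.0 without the same 2 libraries. Egfl7, which has an opposite-strand overlap, made up most of that sum. Without the sixth libraries of PNx and NaKtide the median sum was 59.8 CPM for the 7 genes and 16.1 CPM for the 6 without Egfl7. The relation of Nos3 to the sum of those 6 is not given here. Without NaKtide replicate 6, Nos3 had r = -0.27 and rho = -0.33 with Atg9b, and r = -0.38 and rho = -0.44 with the sum. Gm15587 and the same sum had r = 0.80 and rho = 0.56, but r was 0.42 without NaKtide replicate 6, so its size rests on that library (this pair was chosen after the values were seen). No p is given for the sum, since its genes were chosen with earlier results of these data known.

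Nos3 ran parallel to a list of genes of another tissue. Over the same 18 libraries its level followed the summed CPM of 15 testis germ cell genes, such as the protamine Prm2 and the transition protein Tnp2, with r = 0.89 and rho = 0.92, and with r = 0.89 also without the 2 libraries farthest from the Nos3 median. With the mean of each group taken off, r was 0.91. These 18 libraries hold pairs with counts close to each other: Control replicates 5 and 6, PNx+NaKtide replicates 2 and 3, and NaKtide replicates 1 and 3. Their chi-square per degree of freedom was 1.57, 1.93 and 2.09, the lowest of all pairs within a group. The 18 points of these relations may thus not all be independent. The list itself had 1226 to 1427 CPM in PNx replicates 1 to 3 and 277 to 1176 CPM in the other 21 libraries, and 2 of its 15 genes have an opposite-strand overlap. One of these, Sycp3, made up 652 of the 668 CPM of the list in NaKtide replicate 6 and 412 of the 736 CPM in PNx replicate 6, where Prm2 had 4.53 and 144 CPM. The genes of the list did not all move alike. Spata3, with a median of 163.6 CPM, had a log2 fold change of -0.83 ± 0.61 in PNx against Control. Prm2, Sycp3 and Tnp2 had 0.66, 0.81 and 0.94, and the median of the list was 1.90. The pair of Nos3 and the list, too, was chosen after the values were seen, so its r and rho are a description with no p. The part of germ cell RNA in the Nos3 counts was not tested.

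**Figure D3:**
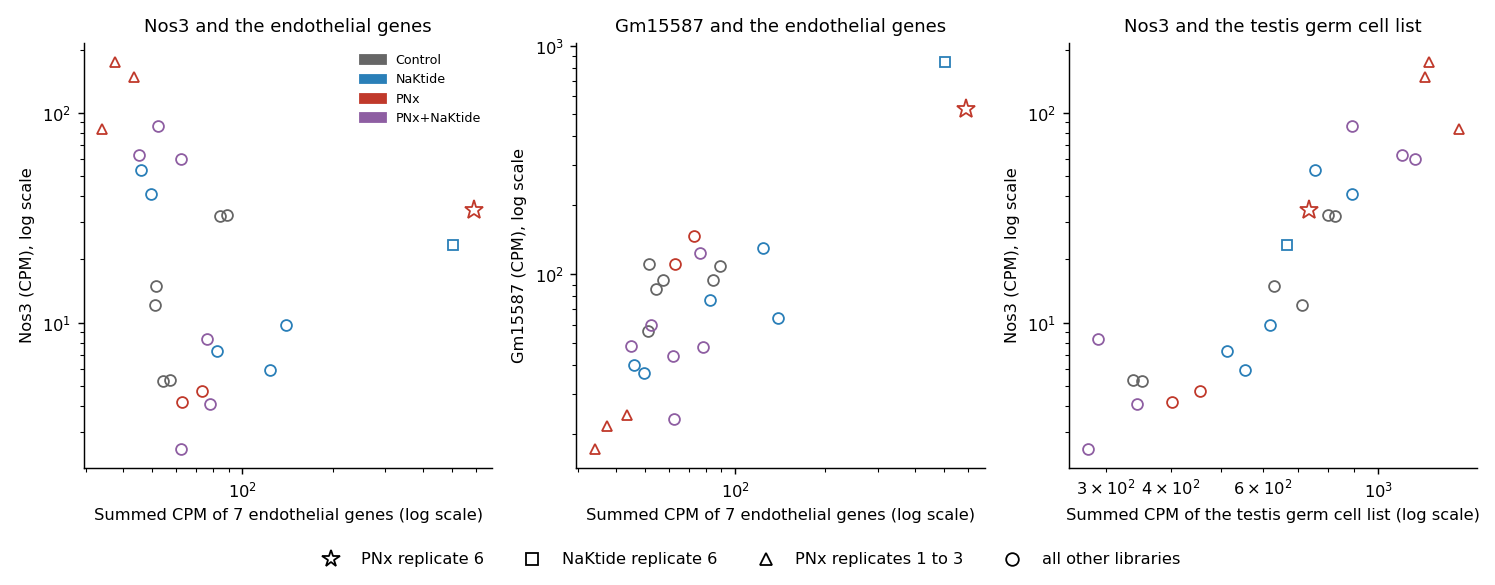
Nos3 against the summed CPM of the 7 endothelial genes (left), Gm15587 against the same sum (middle) and Nos3 against the summed CPM of the testis germ cell list (right), 1 point a library, all axes on a log scale in CPM, coloured by group. The 2 libraries with the highest sum of the 7 genes (star and square, 591 and 503 CPM) have the highest Gm15587 and lie at 34.3 and 23.3 CPM of Nos3. Egfl7 made up 186 and 431 CPM of those sums. The triangles, PNx replicates 1 to 3, are high in Nos3 and in the testis germ cell list.

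The genes whose levels over the 24 libraries were most like those of Nos3, among 19440 genes with a mean of at least 1 CPM, were Diablo (r = 0.973), Tmem98 (0.972), Hip1 (0.972), Pcbp4 (0.970) and Gm49442 (0.968). None is an endothelial marker, and 3 of the 5 (Diablo, Pcbp4 and Gm49442) have an opposite-strand overlap, as have 16.8% of all genes in the table. The share among the 19440 genes searched was not computed, and genes with such an overlap held 70.2% to 86.5% of the counts of a library. These overlaps are therefore not read as an excess. Of the members Tek came nearest, at rank 5359 (r = 0.56), and Gm15587 stood at rank 13681 (r = -0.31). Nearest to Atg9b were Rtraf (r = 0.945), Zeb2 (0.930), Nkx6-2 (0.928), Syn3 (0.927) and H2afy2 (0.925), each of which also has an opposite-strand overlap, and Egfl7 followed at rank 7 (r = 0.92). These are descriptions, over libraries that include the outlying ones named above.

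Partial nephrectomy was compared with the sham operation under the GFP virus (PNx against Control), which asks what kidney failure does to the tissue. By edgeR none of the 9 genes passed the BH-adjusted p threshold of 0.1, where 0.0766% of all 26116 genes tested did. At an unadjusted p-value under 0.05, 5 genes were higher in PNx (Nos3, Kdr, Pecam1, Cdh5 and Cldn5) and 0 lower, where 18.5% of all genes were higher and 6.88% lower. The median log2 fold change of the 9 was 2.14, that of all genes 0.36. DESeq2 called 2 of the 9 (Nos3 and Tek, both higher), where it called 34.9% of the genes to which it gave an adjusted p, and it gave none for Kdr, Pecam1, Cdh5 and Cldn5. With the size factors of DESeq2 in place of TMM, edgeR called the same 5 genes that had passed the unadjusted threshold, where it called 33.3% of all genes.

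The level of Nos3 was 17.1 ± 12.5 CPM in Control and 75.0 ± 73.5 CPM in PNx (SD, n = 6). Control ran from 5.25 over a median of 13.5 to 32.7 CPM, and PNx from 4.16 over 59.2 to 174.5 CPM. In all, 4 of the 6 PNx libraries lay above the highest Control library and the other 2 below the lowest, so the groups overlapped with PNx on both sides. The log2 fold change was 2.14 ± 0.89 (SE; edgeR unadjusted p = 0.0236, adjusted p = 0.157). It was 2.92 ± 0.87 by DESeq2 (adjusted p = 0.015), 2.54 without PNx replicate 4 (edgeR adjusted p = 0.0499) and 2.39 without PNx replicate 5 (edgeR adjusted p = 0.0769), and without PNx replicates 1 to 3 it was -0.30 (edgeR adjusted p = 0.924). The difference of Nos3 between the groups thus rests on 3 of the 6 PNx mice, the same libraries in which the epididymis list was at 22.7 to 791 CPM and the testis germ cell list at 1226 to 1427.

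For the junction and receptor genes the difference rested on PNx replicate 6. Kdr ran from 0 over a median of 0.626 to 4.18 CPM in Control and from 0 over 1.28 to 70.2 in PNx, with a log2 fold change of 3.29 ± 1.24 (edgeR unadjusted p = 0.0136, adjusted p = 0.143). Only PNx replicate 6 lay above every Control library for Kdr, and without it the log2 fold change was -0.15. Cdh5 ran from 0 over 2.78 to 8.03 CPM in Control and from 0 over 3.05 to 123 in PNx, a log2 fold change of 2.79 ± 1.25 (edgeR adjusted p = 0.174) that was -0.47 without that library. Pecam1 ran from 2.01 over 3.50 to 6.17 CPM in Control and from 0.246 over 1.42 to 112 in PNx, and its log2 fold change of 2.35 ± 1.07 (edgeR adjusted p = 0.180) turned to -1.55 ± 0.76 (edgeR unadjusted p = 0.051, adjusted p = 0.161). In PNx, 4 libraries had less Pecam1 than any Control library. Cldn5 ran from 0 over 1.68 to 5.55 CPM in Control and from 0 over 0.802 to 58.5 in PNx, with a log2 fold change of 2.23 ± 1.04 (edgeR adjusted p = 0.185), and of -1.23 ± 0.82 without PNx replicate 6.

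The groups overlapped for the other members, and none of these passed the unadjusted threshold by edgeR. Tek had 2.92, 6.30 and 8.01 CPM (lowest, median, highest) in Control and 2.38, 7.24 and 19.6 in PNx, a log2 fold change of 0.53 ± 0.50 (edgeR adjusted p = 0.484; by DESeq2 1.00, adjusted p = 0.0977). Vwf had 1.50, 3.55 and 5.92 CPM in Control and 1.21, 3.76 and 22.3 in PNx, a log2 fold change of 0.80 ± 0.59. Egfl7 had 27.4, 40.8 and 63.5 CPM in Control and 22.0, 37.9 and 186 in PNx, a log2 fold change of 0.43 ± 0.55. Atg9b had 8.82, 22.1 and 32.1 CPM in Control and 5.05, 14.7 and 91.7 in PNx, a log2 fold change of 0.26 ± 0.60. Without PNx replicate 6 the log2 fold changes of Tek, Vwf, Egfl7 and Atg9b were 0.11, -0.26, -0.38 and -0.79. In that fit 0 of the 9 genes passed the adjusted threshold, where 14.8% of 25781 genes did, and 1 gene, Nos3 (2.29 ± 0.93, edgeR adjusted p = 0.113), was higher and 0 lower at an unadjusted p-value under 0.05, where 22.2% of all genes were higher and 9.03% lower.

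**Figure D4:**
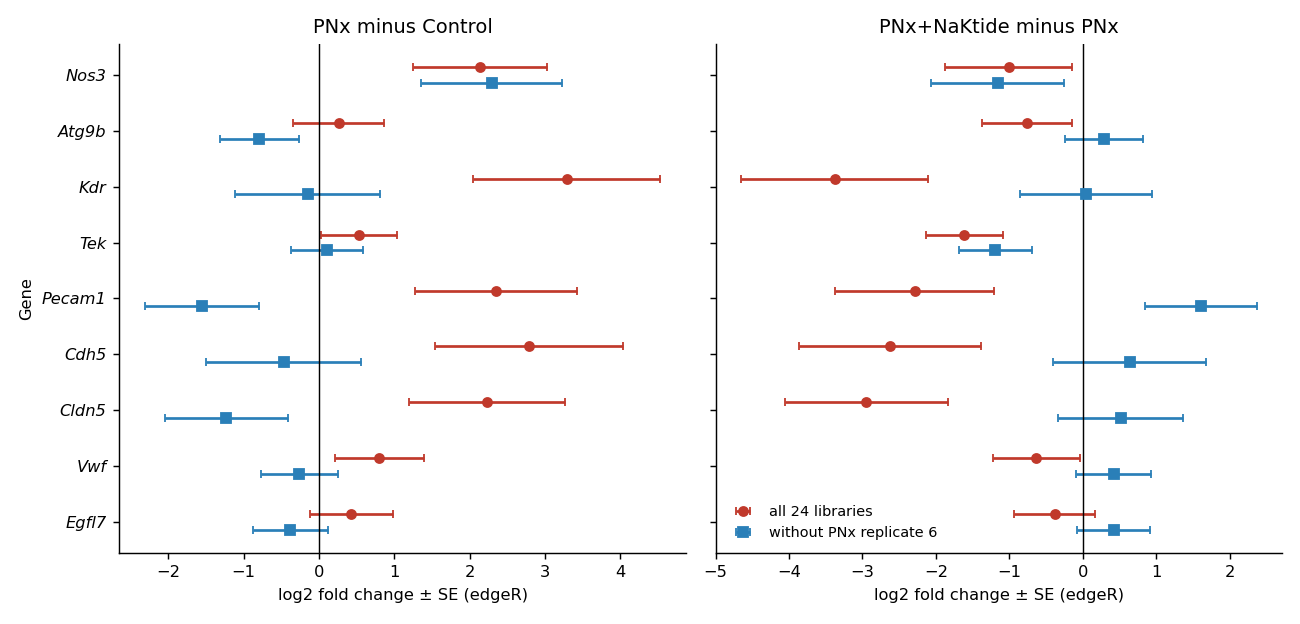
Log2 fold change with its SE from edgeR for each of the 9 genes in PNx against Control (left) and PNx+NaKtide against PNx (right), with all 24 libraries (circles) and without PNx replicate 6 (squares). Kdr, Pecam1, Cdh5, Cldn5, Vwf, Egfl7 and Atg9b change sign in both panels when that library is left out, and Nos3 and Tek do not.

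PNx+NaKtide was compared with PNx, which asks what NaKtide in adipocytes does after nephrectomy, and the comparison shares the PNx libraries with the one before. By edgeR 0 of the 9 genes passed the adjusted threshold, as did 0.0% of all genes. At an unadjusted p-value under 0.05, 0 were higher and 5 lower in PNx+NaKtide (Kdr, Tek, Pecam1, Cdh5 and Cldn5), where 4.07% of all genes were higher and 8.6% lower. DESeq2 called 1 of the 9, Tek, where it called 9.63% of the genes to which it gave an adjusted p. The median log2 fold change of the 9 was -1.61, that of all genes -0.37.

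Tek ran from 0.679 over a median of 2.75 to 4.46 CPM in PNx+NaKtide, and 3 of these libraries lay below the lowest PNx library. Its log2 fold change was -1.61 ± 0.53 (edgeR unadjusted p = 0.00535, adjusted p = 0.357; DESeq2 adjusted p = 0.0433) and -1.19 ± 0.50 without PNx replicate 6 (edgeR unadjusted p = 0.0257, adjusted p = 0.258). Nos3 ran from 2.50 over 34.1 to 86.9 CPM in PNx+NaKtide, and its log2 fold change was -1.01 ± 0.86 (edgeR adjusted p = 0.540). None of the 6 PNx+NaKtide libraries lay above the highest PNx library for Nos3, and 2 lay below the lowest. Without PNx replicates 1 to 3 its log2 fold change was 1.38.

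The junction genes showed the reverse of the comparison before, from the same library. Kdr had a log2 fold change of -3.38 ± 1.27 (edgeR adjusted p = 0.357), Cldn5 of -2.95 ± 1.11, Cdh5 of -2.62 ± 1.24 and Pecam1 of -2.29 ± 1.08. Without PNx replicate 6 these were 0.05, 0.52, 0.64 and 1.61, the last with an edgeR unadjusted p = 0.0442 and adjusted p = 0.285. Kdr had 0, 0.557 and 2.86 CPM (lowest, median, highest) in PNx+NaKtide, which is at or near the limit that a count of 0 allows. Vwf, Egfl7 and Atg9b had log2 fold changes of -0.63, -0.38 and -0.76, with edgeR adjusted p from 0.518 to 0.717.

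NaKtide was compared with Control to see what the peptide does in sham mice. By edgeR 0 of the 9 genes passed the adjusted threshold, as did 0.0% of all genes (DESeq2 0 of the 9, where it called 0.0116%), and at an unadjusted p-value under 0.05, 1 gene was higher and 1 lower, where 2.04% and 1.91% of all genes were. Egfl7 had 29.3, 87.0 and 431 CPM (lowest, median, highest) in NaKtide, with 4 libraries above the highest Control library, and a log2 fold change of 1.57 ± 0.56 (edgeR unadjusted p = 0.00936, adjusted p = 1), which was 0.68 ± 0.49 without NaKtide replicate 6. Tek had 0, 2.26 and 3.23 CPM in NaKtide, with no library above the Control median, and its log2 fold change was -1.48 ± 0.56 (edgeR unadjusted p = 0.0136, adjusted p = 1), which was -1.65 without NaKtide replicate 6. Nos3 had 5.91, 16.5 and 53.6 CPM in NaKtide and a log2 fold change of 0.49 ± 0.87 (edgeR adjusted p = 1).

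Nephrectomy was also compared with sham where both carried the peptide (PNx+NaKtide against NaKtide), which gave 0 of 9 genes past the adjusted threshold by edgeR, as for 0.0% of all genes, and 0 by DESeq2, which called 0.00776%. At an unadjusted p-value under 0.05, 0 were higher and 2 lower, where 1.5% and 2.58% of all genes were: Atg9b (log2 fold change -1.50 ± 0.62, edgeR unadjusted p = 0.0225) and Egfl7 (-1.52 ± 0.56, edgeR unadjusted p = 0.0114), both with an adjusted p of 1. Without NaKtide replicate 6 these were -0.65 and -0.63. Gm15587 had a log2 fold change of -1.78 ± 0.79 here, and of -0.25 without that library. Atg9b had 9.96, 15.4 and 19.0 CPM in PNx+NaKtide and 12.6, 28.9 and 136 in NaKtide.

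Whether nephrectomy acted differently under NaKtide than under GFP was asked by the interaction of both. By edgeR 0 of the 9 genes passed the adjusted threshold, as did 0.0% of all genes (DESeq2 0 of the 9, where it called 0.58%). At an unadjusted p-value under 0.05, 0 were higher and 3 lower, where 3.48% and 5.79% of all genes were: Kdr (-4.69 ± 1.80), Cldn5 (-3.63 ± 1.56) and Egfl7 (-1.95 ± 0.78), with edgeR adjusted p of 0.492, 0.513 and 0.494. Leaving out PNx replicate 6, the 3 values were -1.26, -0.17 and -1.14. The interaction of Nos3 was -1.50 ± 1.22 (edgeR adjusted p = 0.686), and that of Tek -0.13 ± 0.81.

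A wider list of endothelial genes was set beside the members, and the counts of this and the next lists are read against the shares of all genes in the same comparison, which were 18.5% higher and 6.88% lower, and 22.2% and 9.03% without PNx replicate 6. Of 25 further endothelial genes, 13 were higher and 0 lower in PNx than in Control at an unadjusted p-value under 0.05 by edgeR, 0 passed the adjusted threshold, and their median log2 fold change was 1.92. Summed, they came to 899 CPM in PNx replicate 6 and to 242 in NaKtide replicate 6, with 114 to 216 in the other 22 libraries. With that first library left out, 4 of 24 were higher and 2 lower, and the median was -0.30. Aqp1, the water channel of capillary endothelium, had 151 CPM in PNx replicate 6, at most 30.4 in any other library and a median of 3.96. Eng, a co-receptor for transforming growth factor beta, had a median of 74.9 CPM, 75.1 in PNx replicate 6 and a log2 fold change of -0.43 ± 0.43 (edgeR adjusted p = 0.503), and it has an opposite-strand overlap. Without PNx replicate 6, 3 of the 24 passed the adjusted threshold by edgeR, where 14.8% of all genes did, so the count itself does not set the list apart: Cd34 was higher in PNx (1.54, adjusted p = 0.0988), as was Ecscr (2.68, adjusted p = 0.0774), and Esam lower (-2.14, adjusted p = 0.0987). Cd34 and Ecscr have an opposite-strand overlap and Esam, an adhesion molecule of endothelial junctions, has none.

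Genes that make, bind or answer nitric oxide were counted next to Nos3. Of 16 such genes, 4 were higher and 2 lower in PNx than in Control at an unadjusted p-value under 0.05 by edgeR, 0 passed the adjusted threshold, and the median log2 fold change was 0.19, beside 0.36 for all genes, which had 18.5% higher and 6.88% lower. Without PNx replicate 6, 3 were higher and 2 lower, and the median was -0.13. Cav1, caveolin-1, which binds eNOS at the membrane, had 269 CPM in PNx replicate 6, 120 in NaKtide replicate 6 and a median of 7.31 CPM over the 24 libraries. Arg2, an arginase that shares its substrate with eNOS, had a median of 46.0 CPM and a log2 fold change of -0.65 ± 0.45, and Ddah2 and Nosip had -0.23 and 0.14. The summed level of the 16 was 95.9 to 116 CPM in PNx replicates 1 to 3 and 105 to 361 CPM in the other 21. Without PNx replicate 6, 4 of the 16 passed the adjusted threshold by edgeR, where 14.8% of all genes did, and not all of them were higher in PNx. Higher were Nos1, the neuronal synthase (3.53, edgeR adjusted p = 0.0827), Prkg1, the cGMP-dependent kinase (2.91, edgeR adjusted p = 0.0845), and Pde5a, the phosphodiesterase that breaks cGMP down (1.88, edgeR adjusted p = 0.0749). Nos1 and Pde5a have an opposite-strand overlap, and Prkg1 has none.

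The ligands of the receptors among the members were counted likewise. Of 12 vascular growth ligands, 2 were higher and 1 lower in PNx at an unadjusted p-value under 0.05 by edgeR, where 18.5% and 6.88% of all genes were, and 0 passed the adjusted threshold. Their median log2 fold change of 1.45 was -0.72 without PNx replicate 6, where 1 of 11 was higher and 1 lower. Vegfa, the main ligand of the Kdr product, had a median of 39.5 CPM, 95.5 in PNx replicate 6 and 95.7 in NaKtide replicate 6, and a log2 fold change of -0.29 ± 0.58. Vegfb had -0.32 ± 0.55 and Pdgfb -0.34 ± 0.45. Pgf, placental growth factor, had -1.33 ± 0.62 (edgeR unadjusted p = 0.0392, adjusted p = 0.181). The summed ligands were at 23.2 to 36.1 CPM in PNx replicates 1 to 3 and at 72.2 to 365 in the other 21 libraries, so that PNx replicates 1 to 3 had the lowest sums.

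Other cells of the vessel and of the blood were counted beside them, again against 18.5% of all genes higher and 6.88% lower. Of 10 mural cell genes (Tagln and Myh11 among them), 2 were higher and 1 lower in PNx than in Control at an unadjusted p-value under 0.05 by edgeR, with a median log2 fold change of 0.43, and their sum was 79.8 to 121 CPM in PNx replicates 1 to 3 and 249 to 781 in the other 21 libraries. Of 6 lymphatic endothelial genes tested, 2 were higher and 0 lower, with a sum of 39.6 CPM in PNx replicate 6, 5.17 in NaKtide replicate 6 and at most 18.4 in the other 22 libraries. Of 4 platelet genes tested, 0 were higher or lower, and of 10 macrophage genes 0 were higher and 1 lower. The median log2 fold changes of the lymphatic, platelet and macrophage lists were 1.80, -0.19 and 0.75, and 1.07, -0.68 and -0.30 without PNx replicate 6. Of 10 partners of ATG9 in autophagy, 1 was higher and 0 lower, with a median of 0.41 that was -0.06 without PNx replicate 6, and Wipi2, Atg13 and Atg2b had log2 fold changes of -0.07, -0.38 and 0.52. In none of these lists did a gene pass the adjusted threshold by edgeR, nor did one among the adipocyte (4 higher at an unadjusted p-value under 0.05), epididymis (0), testis germ cell (4), skeletal muscle (0), erythrocyte (4) and kidney (1 higher, 2 lower) genes. Leaving out PNx replicate 6, the counts at that unadjusted p-value were 0 higher and 2 lower for the adipocyte, 1 and 1 for the erythrocyte, 0 and 1 for the mural cell and 7 and 0 for the testis germ cell list, beside 22.2% and 9.03% of all genes.

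Since Kdr, Pecam1, Cdh5 and Cldn5 had the same 2 libraries on top, the bases before their start were read where a reference gave them. The RefSeq promoter table (GRCm38.p6) held 5 of the 9 genes: Kdr, Tek, Cldn5, Atg9b and Egfl7, the last with 3 starts. The 250 bases before the start are printed for the receptors Kdr and Tek and for Cldn5, 5′ to 3′ on the strand of the gene. Capitals mark CCGGAA or CAGGAA on either strand, letters of the motif of ETS factors, which are known for their part in endothelial transcription. They are chr5:75978456-75978705 (minus strand) for Kdr, chr4:94739039-94739288 (plus strand) for Tek and chr16:18776597-18776846 (plus strand) for Cldn5.
Kdr promoter: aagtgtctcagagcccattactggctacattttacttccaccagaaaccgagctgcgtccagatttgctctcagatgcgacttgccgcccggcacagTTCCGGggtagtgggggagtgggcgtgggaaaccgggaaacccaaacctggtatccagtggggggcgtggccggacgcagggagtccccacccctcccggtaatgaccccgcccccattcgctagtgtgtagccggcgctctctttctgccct
Tek promoter: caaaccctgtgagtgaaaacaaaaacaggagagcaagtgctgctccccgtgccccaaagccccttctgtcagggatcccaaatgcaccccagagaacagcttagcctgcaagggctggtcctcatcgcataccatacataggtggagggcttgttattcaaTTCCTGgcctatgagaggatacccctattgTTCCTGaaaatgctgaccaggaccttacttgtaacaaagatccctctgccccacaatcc
Cldn5 promoter: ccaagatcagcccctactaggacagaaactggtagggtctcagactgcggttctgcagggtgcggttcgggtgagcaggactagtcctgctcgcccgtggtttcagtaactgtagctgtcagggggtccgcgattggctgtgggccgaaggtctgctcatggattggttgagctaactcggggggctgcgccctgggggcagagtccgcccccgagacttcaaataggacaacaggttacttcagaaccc
Kdr held 1 CCGGAA, Tek 2 CAGGAA and Cldn5 0 of either, and the 3 Egfl7 starts held 2, 1 and 0 CAGGAA. Atg9b held 0. Over all 32851 promoters of this length, 12.0% held CCGGAA, 25.7% CAGGAA and 35.1% either, so that genes with and without these letters were found among those that peaked in PNx replicate 6.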

How the data were processed

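RNA-seq was run on visceral fat of 24 mice (4 groups of 6) with a stranded mRNA kit and paired reads. Per the submitters' processing notes, reads were trimmed with Trimmomatic 0.38 and aligned with HISAT2 2.1.0 to GRCm38, and the authors counted them per gene with GenomicAlignments. The sources used here give neither the annotation release nor the strand setting of the counting. The deposited counts are raw and per Ensembl gene, and the deposited FPKM values, used only for levels between genes, are scaled by length and depth by the authors. Gene names and exons came from GENCODE M21, which held 54165 of the 54232 identifiers.

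Counts were fitted over all 24 libraries with edgeR 4.0.16 (R 4.3.3; TMM scaling, robust quasi-likelihood test, 4 group means) for the 26116 genes with more than 10 counts in sum, with a BH-adjusted p threshold of 0.1, and DESeq2 1.42.0 was an alternative. Sums of CPM were put on a log2 scale with a pseudocount of 2. The fit was run on simulated counts with a dispersion of 0.1 and no outlying library, whereas the common dispersion of these data was 0.509. That run cannot show how the fit performs on data as spread as these. The biological coefficient of variation was 71.4%. P-values of edgeR and DESeq2 set a difference between groups against the spread between these samples. Permutation p-values shuffle the libraries as if each were independent. Named genes were the 9 members, the opposite-strand partners, up to 4 genes of highest mean CPM and any gene past the threshold in each list, and the 5 genes nearest in level to Nos3 and to Atg9b. Genes past the threshold without PNx replicate 6, Sycp3 in the outlying libraries and mt-Nd6 were named after their values were seen. A gene of the nitric oxide list is not reported here by name. The members and lists were chosen with earlier results of these data known.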

Additional observations from a re-analysis of the deposited data

Results flagged for a closer look

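A library was set apart by its gap to the nearest of the other 5 in its group, over the range of the group. The gap had to be past the 95% critical value of Dixon's test, which chance does in about 1 in 20 groups of normally distributed values. Whether these CPM are so distributed was not tested, and the genes share their libraries. The count below is therefore a description and is not set against that rate. Of 48 groups (9 genes and 3 opposite-strand partners in 4 groups), 20 had such a library, which was PNx replicate 6 in 10, NaKtide replicate 6 in 8 and PNx+NaKtide replicate 1 in the rest. In PNx replicate 6 these were Kdr at 70.2, Pecam1 at 112.1, Cdh5 at 122.7, Cldn5 at 58.5, Vwf at 22.3, Egfl7 at 186.1, Atg9b at 91.7, Gm15587 at 530.2, Mir126b at 19.2 and Agpat2 at 123.0 CPM. In NaKtide replicate 6 they were Pecam1 at 21.3, Cdh5 at 22.6, Cldn5 at 9.70, Egfl7 at 431.2, Atg9b at 136.4, Gm15587 at 847.0, Mir126b at 29.1 and Agpat2 at 132.5 CPM. In PNx+NaKtide replicate 1 they were Cdh5 at 9.41 and Gm15587 at 124.0 CPM. Nos3 and Tek had no such library in any group.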

How the results depend on the processing

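In PNx against Control, where the main fit called 0 of the 9 genes, 5 were called with DESeq2 size factors (Nos3, Kdr, Pecam1, Cdh5 and Cldn5), 2 with library size scaling (Nos3 and Kdr), 2 by DESeq2 and 1 (Nos3) with the filterByExpr filter, which left 4 of the 9. Leaving out each library in turn gave 0 to 3 calls, with 3 without PNx replicate 4 and 2 without PNx replicate 5. In PNx+NaKtide against PNx DESeq2 called 1 gene and the other alternatives 0. Over all genes the median log2 fold change in PNx against Control was 0.36 with TMM, 0.76 with DESeq2 size factors and 0.70 with library size scaling, so calls relative to other genes moved with the scaling. The cause of the differences between tools was not tested. Few counts limit the precision of Kdr, Tek, Pecam1, Cdh5, Cldn5 and Vwf.

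Without PNx replicates 1 to 3 the log2 fold change of Nos3 turned to -0.30 in PNx against Control, to 1.38 in PNx+NaKtide against PNx and to 0.90 in the interaction.

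Without the sixth libraries of PNx and NaKtide, values in PNx against Control turned to -0.80 for Atg9b, -0.16 for Kdr, -1.56 for Pecam1, -0.48 for Cdh5, -1.24 for Cldn5, -0.27 for Vwf and -0.38 for Egfl7. Those in PNx+NaKtide against PNx turned to 0.30 for Atg9b, 0.07 for Kdr, 1.62 for Pecam1, 0.66 for Cdh5, 0.53 for Cldn5, 0.43 for Vwf and 0.42 for Egfl7. In NaKtide against Control Pecam1 turned to -0.21 and Cdh5 to -1.97, in PNx+NaKtide against NaKtide to 0.27 and 2.14. The interaction turned to 0.15 for Atg9b, 0.45 for Tek, 1.83 for Pecam1, 2.63 for Cdh5 and 0.51 for Cldn5.

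Leaving out single libraries, the lowest and highest log2 fold changes in PNx against Control were -0.79 and 0.48 for Atg9b, -0.15 and 4.27 for Kdr, -1.55 and 2.61 for Pecam1, -0.47 and 3.25 for Cdh5, -1.23 and 2.71 for Cldn5, -0.26 and 1.01 for Vwf, and -0.38 and 0.60 for Egfl7. In PNx+NaKtide against PNx they were -0.98 and 0.29 for Atg9b, -3.86 and 0.05 for Kdr, -2.61 and 1.61 for Pecam1, -3.20 and 0.64 for Cdh5, -3.21 and 0.52 for Cldn5, -0.85 and 0.42 for Vwf, and -0.55 and 0.42 for Egfl7. In NaKtide against Control they were -0.21 and 0.95 for Pecam1 and -1.97 and 0.98 for Cdh5, and in PNx+NaKtide against NaKtide -1.0 and 0.27, and -0.93 and 2.15. The interaction ran from -3.35 to 0.86 for Pecam1, from -3.72 to 0.12 for Cdh5 and from -0.39 to 0.28 for Tek. Nos3 kept its sign in each, between 1.70 and 2.54 in PNx against Control.

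Same-numbered libraries of different groups had correlations of their deviations from -0.592 to 0.712 (median 0.124), with 19 of 36 over 0.1. Libraries of different groups and different numbers had a median of -0.0545. Whether the numbers pair the mice was not tested, and the main fit did not use them. A fit with the replicate block called 0 of the 9 genes in every comparison. Under the block the sign turned for Nos3 (-0.07), Pecam1 (-0.17) and Cdh5 (-0.71) in NaKtide against Control, for Atg9b (-0.38), Pecam1 (-0.10) and Egfl7 (-0.02) in PNx against Control, for Egfl7 (0.09) in PNx+NaKtide against PNx, for Cdh5 (1.28) in PNx+NaKtide against NaKtide, and for Tek (0.13) and Cdh5 (0.26) in the interaction. The interaction was not run on compared groups only, since it uses all groups.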
